A study of Homo sapiens with 9 samples.

Results

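The early-response genes described here are EGR1, EGR2, EGR3, KLF2, KLF4, KLF6, KLF10, IER2, SGK1 and MYC, 10 genes chosen by name and found through the platform's probe annotation. Of the 47231 probes on the array, 17 carried the symbol of one of these genes. They covered 9 of the 10 genes, and the expression of EGR2 was not analysed here. A filter on dim probes kept 14 of the 17 probes, which covered 8 genes, among 22467 kept probes of 12239 named genes.

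The study measured total RNA of MDA-MB-231, an established estrogen receptor-negative breast adenocarcinoma line, on Illumina BeadChip arrays. Its groups were cells given an siRNA against MTDH-WT (WT knockdown), cells given an siRNA against a spliced MTDH isoform (isoform knockdown) and control cells that the design text calls untreated, with 3 labelled samples in each. Each transfection used 200 pmol of siRNA for 24 h, and all cells grew in DMEM with 10% serum and 2 mM glutamine. Control replicate 2 was the average of control replicates 1 and 3 at 47231 of 47231 probes, so it was left out of the fits and of all levels, and only its detection p-values entered the filter on dim probes. Each knockdown therefore had n = 3, against n = 2 in control.

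Transfection itself and lower MTDH cannot be told apart, because the controls are described as untreated. The sources used here give neither slides nor dates, so separate handling of the groups cannot be told apart from the siRNAs either. Nothing says that the replicates came from separate cultures, and p-values therefore measure only the spread between these samples. In bulk RNA, fewer expressing cells and less RNA per cell cannot be told apart. Precision is limited by the small number of arrays.

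On the 8 arrays used, 20295 to 21761 probes were detected above background at a detection p under 0.05. MTDH, the targeted gene, had levels of 9.59, 9.79 and 9.90 in the WT knockdown and 9.87, 9.75 and 9.68 in isoform knockdown cells, against 10.71 and 10.69 in control, on the normalized log2 scale. Its probe fell by 0.94 ± 0.11 (SE) in the WT knockdown and by 0.93 ± 0.11 in isoform knockdown cells, with adjusted p-values of 0.000123 and 0.000285 in limma. The files name 1 MTDH probe, annotated to an MTDH transcript record, and nothing in them says whether it also reads the spliced isoform. Of 13 markers of breast lines, 9 were detected on all 8 arrays and 4 on none, ESR1 and PGR among these 4. Of 7 leukocyte markers 3 were detected on all arrays (CD14, CD68 and LYZ), and of 6 fibroblast markers 1 was (PDGFRB), while CD3E and COL3A1 were detected on none and 5 of 6 endothelial markers on none. The summed level of the breast line markers was 14.23 to 14.35 in the WT knockdown and 14.35 to 14.43 in isoform knockdown cells, against 14.52 to 14.62 in control (log2). The summed leukocyte marker level was 10.135 to 10.29 in the WT knockdown and 10.49 to 10.55 in isoform knockdown cells, against 10.47 to 10.53 in control, and the summed fibroblast marker level was 7.76 to 7.91, 8.11 to 8.25 and 8.18 to 8.24 for the WT knockdown, the isoform knockdown and control (log2). Single markers moved in opposite directions in the WT knockdown. COL1A1 rose by 0.68 and PDGFRB fell by 1.32, and CD14 rose by 0.39 (0.10 and not called under median scaling) while CD68 fell by 0.51. Among breast line markers KRT8 rose by 0.67 (0.30 and not called under median scaling). CD44, EGFR and CDH2 fell by 0.80, 0.51 and 1.15, and the other kept breast line markers were not called. The part of those markers in the results below was not tested.

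Early-response genes are transcribed within minutes of serum, growth factors, cytokines or stress, without new protein synthesis. Kinases of the ERK, p38 and JNK cascades phosphorylate ETS-family partners of the serum response factor SRF, which binds a motif called the CArG box. CREB acts through cyclic AMP response elements. The EGR and KLF proteins are zinc-finger transcription factors that bind GC-rich DNA, and EGR1 also binds its own promoter. In breast cancer lines this layer reports growth-factor and stress signalling, with MYC and the kinase SGK1 carrying it on to cell growth and survival.

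The promoters of EGR1, KLF4, IER2, SGK1 and KLF2 are shown. EGR1, KLF4 and IER2 stood highest in the WT knockdown, SGK1 in the isoform knockdown and KLF2 in control. Each window holds 250 bases before and 50 bases after the annotated start, 300 bases in all, in the RefSeq annotation of GRCh38.p14, written along the gene's own strand. The windows are chr5:138465229-138465528 (+) for EGR1, chr9:107489720-107490019 (-) for KLF4, chr19:13150161-13150460 (+) for IER2, chr6:134174817-134175116 (-) for SGK1, and chr19:16324576-16324875 (+) for KLF2. RefSeq has 3 windows for SGK1, and the one shown is that of the most downstream start. Capitals mark CArG boxes and EGR sites, and the IER2 window holds neither.
EGR1: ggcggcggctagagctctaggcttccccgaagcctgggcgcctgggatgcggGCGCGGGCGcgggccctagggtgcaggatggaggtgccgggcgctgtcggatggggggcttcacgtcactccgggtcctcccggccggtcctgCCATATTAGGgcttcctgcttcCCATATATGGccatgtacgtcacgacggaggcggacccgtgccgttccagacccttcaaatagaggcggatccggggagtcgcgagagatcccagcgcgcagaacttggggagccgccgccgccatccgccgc
KLF4: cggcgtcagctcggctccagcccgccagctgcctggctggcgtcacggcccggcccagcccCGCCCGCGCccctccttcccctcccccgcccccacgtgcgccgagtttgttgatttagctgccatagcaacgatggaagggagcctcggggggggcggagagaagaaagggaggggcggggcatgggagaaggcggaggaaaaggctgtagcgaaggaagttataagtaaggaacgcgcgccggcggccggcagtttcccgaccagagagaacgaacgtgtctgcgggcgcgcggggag
IER2: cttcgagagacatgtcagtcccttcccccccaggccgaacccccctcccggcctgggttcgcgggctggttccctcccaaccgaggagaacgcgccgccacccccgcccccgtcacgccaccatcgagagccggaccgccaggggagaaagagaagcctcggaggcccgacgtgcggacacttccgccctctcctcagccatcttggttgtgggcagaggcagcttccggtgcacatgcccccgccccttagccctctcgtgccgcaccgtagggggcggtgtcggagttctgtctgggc
SGK1: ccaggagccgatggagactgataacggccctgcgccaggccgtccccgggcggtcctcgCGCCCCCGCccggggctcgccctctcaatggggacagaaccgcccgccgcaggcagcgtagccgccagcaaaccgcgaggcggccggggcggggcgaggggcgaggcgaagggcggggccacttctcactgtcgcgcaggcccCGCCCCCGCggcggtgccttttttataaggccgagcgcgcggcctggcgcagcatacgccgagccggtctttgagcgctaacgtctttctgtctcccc
KLF2: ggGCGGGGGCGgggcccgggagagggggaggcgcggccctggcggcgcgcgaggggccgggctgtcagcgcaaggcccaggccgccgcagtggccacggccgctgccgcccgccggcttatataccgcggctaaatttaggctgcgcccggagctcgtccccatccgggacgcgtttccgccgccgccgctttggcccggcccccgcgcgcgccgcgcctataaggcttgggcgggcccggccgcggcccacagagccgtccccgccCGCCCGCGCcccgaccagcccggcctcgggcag

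Several motifs were searched on both strands of these windows: the CArG box, the EGR site GCGNGGGCG, the cyclic AMP response element core TGACG, the GC box GGGCGG, the E-box CACGTG and the TATA core TATAAA. EGR1 had 2 CArG boxes, which lay 105 to 96 and 83 to 74 bases before the start. A CArG box was found in 1.29% of all 35116 promoter windows. EGR2 has 3 windows, whose letters are not shown. The most downstream of them also held 1 CArG box, 71 to 62 bases before its start, and 2 TGACG cores. The other EGR2 windows each held 0 CArG boxes. EGR1 also held 1 EGR site, 198 to 190 bases before its start, and 2 TGACG cores. KLF4 had 1 EGR site, 2 TGACG cores, 4 GC boxes and 1 E-box. IER2 had 1 TGACG core and 4 GC boxes. In the SGK1 window shown there were 2 EGR sites, 6 GC boxes and 1 TATA core, the last 27 to 22 bases before the start. The other SGK1 windows each held 0 EGR sites, 0 GC boxes and 1 TATA core. KLF2 had 2 EGR sites and 6 GC boxes. KLF6, whose window lies at chr10:3785160-3785459 (-), had 1 EGR site, 2 GC boxes and 1 E-box. In the windows of KLF4, SGK1 (the one shown), KLF2 and KLF6 every EGR site overlapped a GC box. Over all windows, 9.43% held an EGR site, 24.6% a TGACG core, 45.0% a GC box, 7.26% an E-box and 11.5% a TATA core. A match describes the letters only and is no evidence that a factor was bound.

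**Figure D1:**
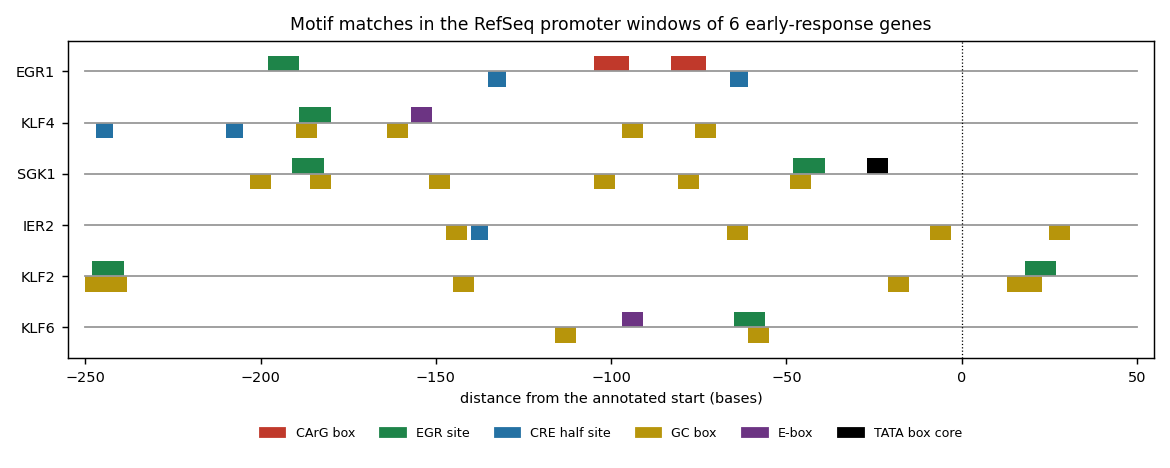
Motif matches in the promoter windows of EGR1, KLF4, SGK1, IER2, KLF2 and KLF6. The x axis gives the distance from the annotated start in bases, each line is 1 gene and each box 1 match, with matches drawn above or below the line by motif. The 2 CArG boxes drawn are in the EGR1 window and none is in the other 5. The EGR2 windows, 1 of which holds a CArG box, are not drawn.

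Most of the measured early-response probes stood higher in both knockdowns than in control. In the WT knockdown against control, 10 of the 14 kept probes rose and 1 fell at an adjusted p under 0.05 (Benjamini-Hochberg over all 22467 kept probes, limma), against 51.5% of all kept probes called either way, 24.5% higher and 27.0% lower. In the isoform knockdown against control, 8 rose and 1 fell, against 40.1% of all kept probes called, 19.1% higher and 21.0% lower. Between the knockdowns (isoform minus WT), 3 probes were higher and 5 lower, against 32.9% of all probes called, 17.3% higher and 15.6% lower. Called changes of at least 2-fold were seen at 7 member probes in the WT knockdown (9.45% of all probes). These were probes of EGR1, KLF4, IER2 and SGK1. There were 4 in isoform knockdown cells (3.87%), those of EGR1 and SGK1. No member probe differed 2-fold between the knockdowns (2.24% of all probes). Probes of 1 gene are not separate members. By the kept probe with the highest mean, 6 of 8 genes rose and 1 fell in the WT knockdown. Over all named genes these shares were 26.6% and 29.7%. In the isoform knockdown 5 rose and 1 fell, against 19.9% and 24.1%. Between the knockdowns 1 was higher and 4 lower, against 37.8% called either way.

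The median difference over the 14 probes was 1.00 on the log2 scale in the WT knockdown, against -0.009 over all kept probes. It was 0.63 in isoform knockdown cells, against -0.004 over all, and -0.18 between the knockdowns, against 0.02. Over the 8 genes, each by its kept probe with the highest mean, the median was 1.00 in the WT knockdown. It was 0.735 in isoform knockdown cells and -0.272 between the knockdowns. All 14 kept probes were detected on all 8 arrays. Levels did not overlap between the groups at 13 of 14 probes in the WT knockdown against control (67.8% of all probes), at 12 in isoform knockdown cells against control (62.6%) and at 9 between the knockdowns (45.4%).

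Scaling each array by its median, in place of quantile normalization, moved the median of all kept probes by -0.19 in the WT knockdown and -0.14 in isoform knockdown cells. Under it 2849 probes were called higher and 7765 lower in the WT knockdown, against 5500 and 6076 by quantile normalization. In the isoform knockdown the counts were 2103 higher and 5753 lower, against 4285 and 4716. The shares of all genes given below are by quantile normalization, so list counts under median scaling are to be set beside these counts. The SE of the WT knockdown difference from control was 0.19 at every kept member probe in the median scaling fit. By quantile normalization it ran from 0.09 to 0.16. A call can therefore be lost through the larger SE as well as through a changed difference, and which of these ended a call was not tested. For member probes, differences above the median probe under that scaling are given where the choice changed a direction or a call. For other genes named below, the value under median scaling stands beside a stated call that it ended. Each of these genes was read by its kept probe with the highest mean, and values of any further kept probes are not given.

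**Figure D2:**
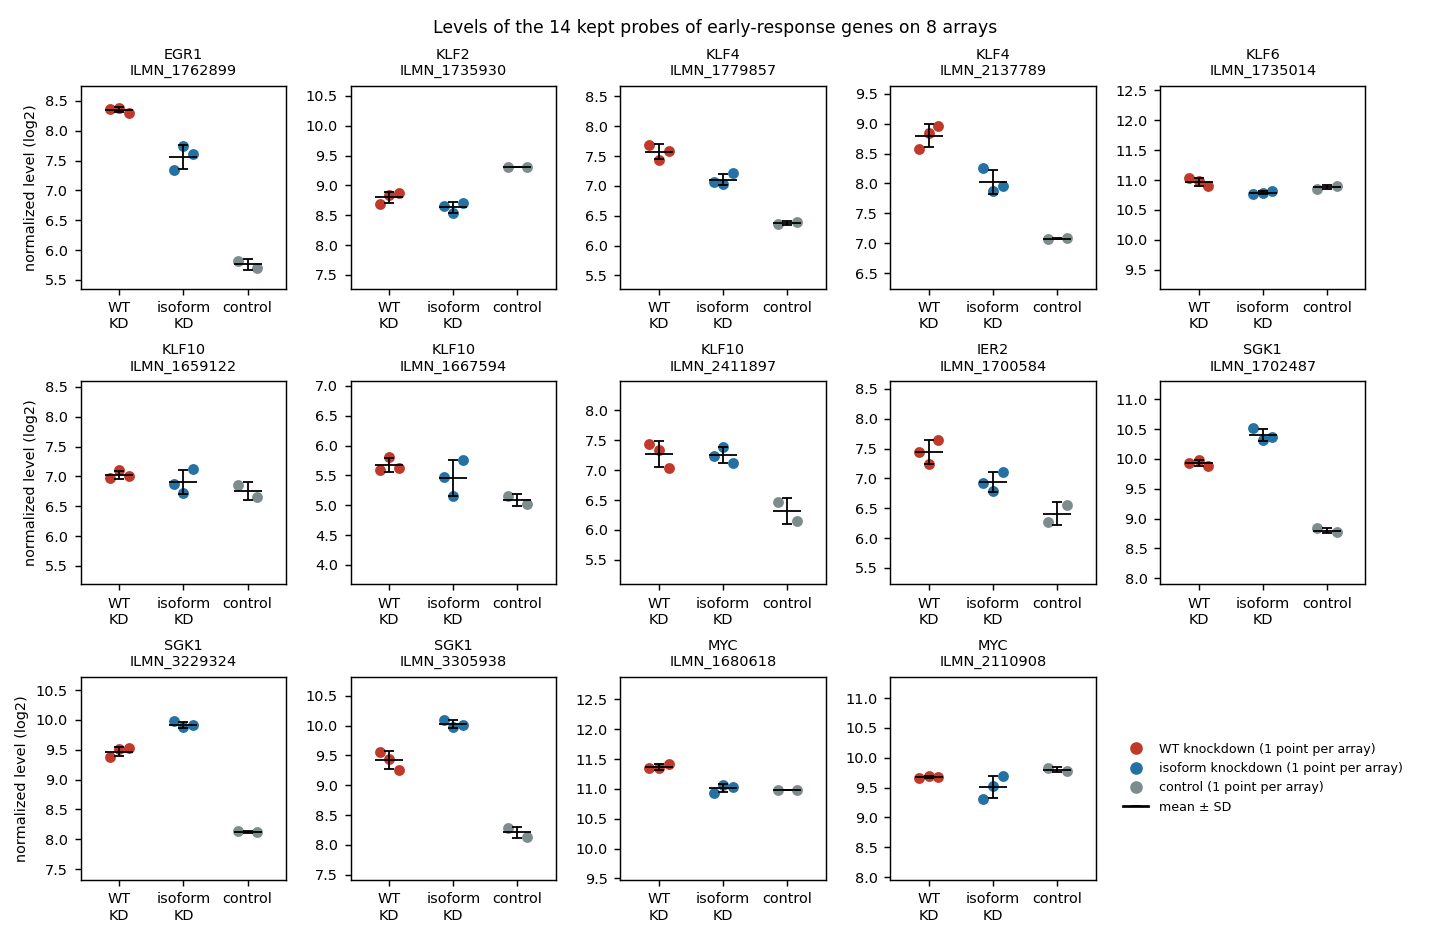
Normalized log2 level (y axis, each panel spanning the same number of log2 units) of each of the 14 kept probes of early-response genes in the WT knockdown, the isoform knockdown and control. Each point is 1 array and bars are the mean ± SD (n = 3, 3 and 2). EGR1, both KLF4 probes and IER2 stand highest in the WT knockdown, the 3 SGK1 probes stand highest in isoform knockdown cells, and KLF2 stands highest in control.

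EGR1, the zinc-finger transcription factor that serum and stress induce through SRF, had the largest rise of the members in the WT knockdown. Its probe ILMN_1762899 had levels of 8.37, 8.38 and 8.30 in the WT knockdown and 7.34, 7.74 and 7.61 in isoform knockdown cells, against 5.82 and 5.70 in control. The 3 groups did not overlap, and every WT knockdown array stood above every isoform knockdown array. EGR1 rose 6.02-fold in the WT knockdown, a difference of 2.59 ± 0.12 (SE, adjusted p = 9.14e-07, limma). In the isoform knockdown it rose 3.49-fold, a difference of 1.80 ± 0.12 (adjusted p = 1.75e-05). It was 1.73-fold lower in isoform knockdown cells than in the WT knockdown, a difference of -0.79 ± 0.11 (adjusted p = 0.00068). Of the 22467 differences from control, the EGR1 rise ranked 55 from the top in the WT knockdown and 78 in isoform knockdown cells.

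EGR3, a relative of EGR1 with a like DNA-binding domain, was near or below background. Its probe ILMN_1724280 was detected on isoform knockdown replicate 3 and control replicate 3 only, and ILMN_1722781 was detected on none of the 8 arrays. Both were dropped by the filter on dim probes, and no fold is given. Among other EGR relatives and cofactors, 3 of 4 listed genes were kept. WT1, a zinc-finger factor that binds EGR-like sites, fell by 1.05 ± 0.09 in the WT knockdown (adjusted p = 2.16e-05) and by 0.85 ± 0.09 in isoform knockdown cells (adjusted p = 0.000169). NAB2, a corepressor that binds EGR proteins and is itself an EGR1 target, rose by 0.44 ± 0.10 in isoform knockdown cells (adjusted p = 0.00799), a call lost under median scaling (0.31), while the WT knockdown value was 0.10 ± 0.10 (adjusted p = 0.422). NAB1, the related corepressor, fell by 0.50 ± 0.10 in isoform knockdown cells (adjusted p = 0.00483) and gave -0.24 ± 0.10 in the WT knockdown (adjusted p = 0.0777), which passed under median scaling (-0.56).

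Of 8 genes listed as EGR1 targets 6 were kept, NAB2 among them. Of these 6, 1 fell in the WT knockdown, and 2 rose in isoform knockdown cells, against 56.3% and 44.0% of all named genes called in these comparisons. Under median scaling 1 rose in isoform knockdown cells, and 1 fell in the WT knockdown. F3, tissue factor, rose by 0.92 ± 0.10 in isoform knockdown cells (adjusted p = 0.000222) and gave 0.27 ± 0.10 in the WT knockdown (adjusted p = 0.0581). It was higher in the isoform than in the WT knockdown by 0.65 ± 0.09 (adjusted p = 0.000834), the opposite direction from EGR1. TGFB1, a growth factor, was the gene called lower in the WT knockdown, where its probe was near background and has no fold. The median difference of the list was 0.18 in the WT knockdown and 0.15 in isoform knockdown cells.

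KLF4, which acts in epithelial differentiation and is one of the factors that reprogram cells to pluripotency, rose at both of its probes. Probe ILMN_2137789 had levels of 8.59, 8.85 and 8.97 in the WT knockdown and 8.25, 7.88 and 7.95 in isoform knockdown cells, against 7.07 and 7.08 in control. Probe ILMN_1779857 had 7.69, 7.44 and 7.59 in the WT knockdown and 7.07, 7.03 and 7.21 in isoform knockdown cells, against 6.36 and 6.40 in control. At both probes the 3 groups were apart, with the WT knockdown highest and control lowest. In the WT knockdown KLF4 rose 3.31-fold at ILMN_2137789 (1.73 ± 0.14, adjusted p = 1.55e-05) and 2.29-fold at ILMN_1779857 (1.19 ± 0.10, adjusted p = 2.18e-05). In the isoform knockdown the rises were 1.94-fold (0.95 ± 0.14, adjusted p = 0.000874) and 1.65-fold (0.72 ± 0.10, adjusted p = 0.000756). KLF4 was lower in the isoform than in the WT knockdown by 1.71-fold at ILMN_2137789 (-0.77 ± 0.13, adjusted p = 0.00168) and by 1.39-fold at ILMN_1779857 (-0.47 ± 0.09, adjusted p = 0.00437). Under median scaling the second of these was -0.39, or -0.46 relative to the median probe, and no longer passed. Over the 8 arrays the KLF4 probes had a Pearson r of 0.949 with each other, as a description of arrays that share their groups.

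KLF2, a factor known for quiescence of endothelial and T cells, was the member that fell in both knockdowns. Its probe ILMN_1735930 had levels of 8.69, 8.84 and 8.87 in the WT knockdown and 8.65, 8.54 and 8.71 in isoform knockdown cells, against 9.30 and 9.31 in control. Both control arrays stood above all 6 knockdown arrays, and the knockdowns overlapped each other. KLF2 was 1.43-fold lower in the WT knockdown (-0.51 ± 0.10, adjusted p = 0.00196) and 1.60-fold lower in isoform knockdown cells (-0.68 ± 0.10, adjusted p = 0.000748). The difference between the knockdowns, -0.16 ± 0.09, did not pass (adjusted p = 0.186).

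KLF6, a widely expressed family member induced by wounding, had no called difference. Its probe ILMN_1735014 had levels of 11.03, 10.99 and 10.90 in the WT knockdown and 10.77, 10.77 and 10.82 in isoform knockdown cells, against 10.85 and 10.90 in control. The WT knockdown and control ranges met at 10.90, and the isoform knockdown lay below both. The WT knockdown value was 0.09 ± 0.09 (adjusted p = 0.398), which became -0.27 under median scaling, or -0.07 relative to the median probe. The isoform knockdown value was -0.09 ± 0.09 (adjusted p = 0.442), and the difference between the knockdowns was -0.18 ± 0.08 (adjusted p = 0.102).

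KLF10, a repressor first known as a gene induced early by TGF-beta, was read by 3 probes that differed in their calls. Probe ILMN_2411897 had levels of 7.44, 7.34 and 7.03 in the WT knockdown and 7.24, 7.38 and 7.12 in isoform knockdown cells, against 6.46 and 6.15 in control. Here both knockdowns stood clear of control and overlapped each other, and KLF10 rose 1.95-fold in the WT knockdown (0.96 ± 0.15, adjusted p = 0.000531) and 1.92-fold in isoform knockdown cells (0.94 ± 0.15, adjusted p = 0.00112). Probe ILMN_1667594 had 5.58, 5.81 and 5.62 in the WT knockdown and 5.47, 5.16 and 5.76 in isoform knockdown cells, against 5.15 and 5.01 in control. The controls stood below all knockdown arrays, isoform knockdown replicate 2 by the narrowest gap. This probe rose by 0.59 ± 0.16 in the WT knockdown (adjusted p = 0.0128), a call lost without control replicate 3 (0.52), and gave 0.38 ± 0.16 in isoform knockdown cells (adjusted p = 0.0905), which passed without isoform knockdown replicate 2 (0.53). Probe ILMN_1659122 had 6.98, 7.10 and 7.01 in the WT knockdown and 6.87, 6.72 and 7.13 in isoform knockdown cells, against 6.86 and 6.66 in control. The isoform knockdown overlapped control there, the WT knockdown did not, and neither difference passed (0.27 ± 0.13, adjusted p = 0.109, and 0.15 ± 0.13, adjusted p = 0.396). The isoform knockdown value at that probe became -0.0013 under median scaling, or 0.14 above the median probe. No KLF10 probe differed between the knockdowns, with adjusted p-values of 0.924, 0.305 and 0.465 in the order above. Pearson r between the KLF10 probes over the 8 arrays was between 0.506 and 0.954.

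Of 14 other KLF and SP factors listed, relatives that bind the same GC-rich boxes, 10 were kept. In the WT knockdown 1 rose and 5 fell, and in isoform knockdown cells 2 rose and 4 fell, with median differences of -0.31 and -0.21. Over all named genes 26.6% rose and 29.7% fell in the WT knockdown, and 19.9% rose and 24.1% fell in isoform knockdown cells. KLF9, a glucocorticoid-inducible member, rose by 0.91 ± 0.13 in the WT knockdown (adjusted p = 0.000333) and by 0.63 ± 0.13 in isoform knockdown cells (adjusted p = 0.00463). KLF13 fell by 0.74 ± 0.10 (adjusted p = 0.000226) and by 0.55 ± 0.10 (adjusted p = 0.00222) in the same comparisons. SP4 fell by 1.41 ± 0.23 and 1.02 ± 0.23 (adjusted p = 0.000768 and 0.0072), and SP2 by 0.88 ± 0.12 and 0.53 ± 0.12 (adjusted p = 0.000221 and 0.00615). Of 9 listed KLF2 and KLF4 targets, 5 were kept, and 2 rose and 2 fell in the WT knockdown while 1 rose and 2 fell in isoform knockdown cells, with median differences of -0.11 and 0.18. Under median scaling 1 rose and 2 fell in the WT knockdown, and 0 rose and 2 fell in isoform knockdown cells. Over all named genes 56.3% and 44.0% were called in these comparisons. Among them CDKN1A, the cell cycle inhibitor p21, fell by 0.32 ± 0.09 in the WT knockdown (adjusted p = 0.0153) and by 0.78 ± 0.09 in isoform knockdown cells (adjusted p = 0.000242), while ITGB2, an integrin subunit, rose by 0.65 ± 0.09 and 0.62 ± 0.09 (adjusted p = 0.000222 and 0.000562), both calls being lost under median scaling (0.38 and 0.42). NOS3, the endothelial nitric oxide synthase, was not well above background in the WT knockdown and at least 1.48-fold lower there than in control (adjusted p = 0.00113). IVL, the keratinocyte protein involucrin, was not well above background in control and at least 1.15-fold higher in the WT knockdown (adjusted p = 0.0252).

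IER2, an immediate early nuclear protein, rose in both knockdowns. Its probe ILMN_1700584 had levels of 7.44, 7.24 and 7.65 in the WT knockdown and 6.92, 6.79 and 7.11 in isoform knockdown cells, against 6.27 and 6.54 in control. The 3 groups were in the same order as for EGR1 and KLF4, with no overlap between them. IER2 rose 2.05-fold in the WT knockdown (1.04 ± 0.15, adjusted p = 0.000337) and 1.44-fold in isoform knockdown cells (0.53 ± 0.15, adjusted p = 0.0184). It was 1.42-fold lower in the isoform than in the WT knockdown (-0.51 ± 0.13, adjusted p = 0.0162). The isoform knockdown call against control was lost without control replicate 1 (0.39), without isoform knockdown replicate 3 (0.45) and under median scaling (0.41, or 0.55 above the median probe). The call between the knockdowns was lost without WT knockdown replicate 3 (-0.41), without isoform knockdown replicate 2 (-0.43) and under median scaling (-0.42, or -0.49 relative to the median probe).

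Other immediate early genes were listed alongside, 25 in all, of which 21 were kept. In the WT knockdown 14 rose and 4 fell, with a median difference of 0.90, against 26.6% of all named genes higher and 29.7% lower. In the isoform knockdown 15 rose and 4 fell, with a median of 0.53, against 19.9% higher and 24.1% lower. Over all kept probes 17.3% were higher and 15.6% lower between the knockdowns (isoform minus WT). Of the listed genes 2 were higher and 5 lower there, against 37.8% of all named genes called either way. Under median scaling the counts against control were 11 rising and 4 falling in the WT knockdown, and 10 rising and 5 falling in isoform knockdown cells. Between the knockdowns they were 2 higher and 1 lower. ATF3, a stress-induced factor, rose by 1.89 ± 0.09 in the WT knockdown and 2.03 ± 0.09 in isoform knockdown cells (adjusted p = 9.26e-07 and 1.96e-06). GADD45B, a stress sensor of the p38 pathway, rose by 1.67 ± 0.10 and 1.26 ± 0.10 (adjusted p = 2.47e-06 and 3.32e-05) and was lower in the isoform than in the WT knockdown (-0.41 ± 0.09, adjusted p = 0.00588), a difference that did not pass under median scaling (-0.35). DUSP1, a phosphatase of these kinases that glucocorticoids also induce, rose by 1.14 ± 0.13 and 1.72 ± 0.13 (adjusted p = 9.48e-05 and 3.08e-05) and was higher in isoform knockdown cells (0.58 ± 0.12, adjusted p = 0.00478). TRIB1, a pseudokinase, rose by 1.04 ± 0.09 and 1.02 ± 0.09 (adjusted p = 2.63e-05 and 7.62e-05).

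Of 21 listed SRF and ETS cofactors and upstream kinases, 17 were kept, and 5 rose and 8 fell in the WT knockdown while 3 rose and 6 fell in isoform knockdown cells, with median differences of -0.22 and -0.13. Over all named genes 26.6% rose and 29.7% fell in the WT knockdown, against 19.9% and 24.1% in isoform knockdown cells. Under median scaling the counts of the list were 1 and 9, and 1 and 6. ELK4, an ETS partner of SRF, rose by 1.07 ± 0.12 in the WT knockdown (adjusted p = 9.12e-05), gave -0.05 ± 0.12 in isoform knockdown cells (adjusted p = 0.757) and was lower in the isoform than in the WT knockdown by 1.12 ± 0.11 (adjusted p = 0.000106). MAP2K5, the kinase that activates ERK5 upstream of KLF2 and KLF4, fell by 1.72 ± 0.14 and 0.78 ± 0.14 (adjusted p = 1.32e-05 and 0.00212). MAPK3, the kinase ERK1, fell by 0.84 ± 0.12 and 0.39 ± 0.12 (adjusted p = 0.000304 and 0.024). MRTFB, an actin-regulated SRF coactivator, was not well above background in the WT knockdown and at least 2.07-fold lower there than in control (adjusted p = 3.12e-05).

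**Figure D3:**
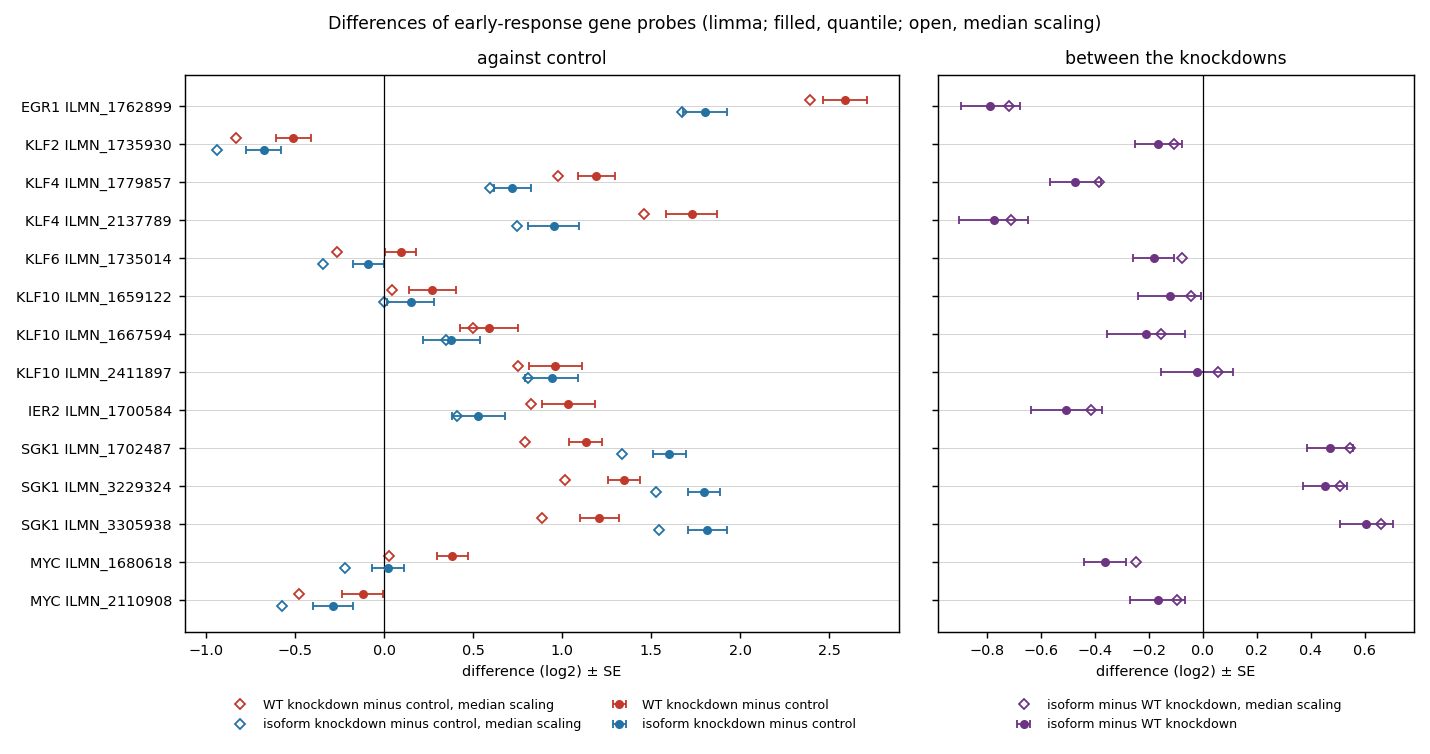
Differences of the 14 early-response probes in log2 units (x axis) with SE bars, in the WT and isoform knockdowns against control (left) and in the isoform against the WT knockdown (right). Filled points are from quantile-normalized values and open points from median scaling. EGR1 lies at 2.59 and 1.80 against control, SGK1 is the gene right of 0 between the knockdowns by both scalings, and KLF6 lies at 0.09 and -0.09 against control, with the first of these left of 0 under median scaling.

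SGK1, a kinase induced by serum and glucocorticoids that acts downstream of PI3K on ion transport and survival, rose at its 3 kept probes and was the member higher in isoform knockdown cells than in the WT knockdown. Probe ILMN_3229324 had levels of 9.38, 9.51 and 9.53 in the WT knockdown and 9.98, 9.88 and 9.91 in isoform knockdown cells, against 8.13 and 8.11 in control. Probe ILMN_1702487 had 9.93, 9.98 and 9.88 in the WT knockdown and 10.51, 10.32 and 10.37 in isoform knockdown cells, against 8.83 and 8.77 in control. Probe ILMN_3305938 had 9.56, 9.43 and 9.26 in the WT knockdown and 10.09, 9.97 and 10.02 in isoform knockdown cells, against 8.28 and 8.14 in control. At each of the 3 probes the groups were apart, with the isoform knockdown highest, and the probes had Pearson r of 0.981 to 0.995 with each other over the 8 arrays. In the isoform knockdown SGK1 rose 3.48-fold, 3.04-fold and 3.52-fold at these probes (1.80 ± 0.09, 1.60 ± 0.09 and 1.82 ± 0.11), with adjusted p-values of 3.33e-06, 8.51e-06 and 9.64e-06. In the WT knockdown the rises were 2.54-fold, 2.19-fold and 2.31-fold (1.35 ± 0.09, 1.13 ± 0.09 and 1.21 ± 0.11), with adjusted p-values of 4.9e-06, 1.58e-05 and 2.56e-05. The isoform knockdown exceeded the WT knockdown by 1.37-fold, 1.39-fold and 1.52-fold (adjusted p = 0.00254, 0.00252 and 0.00154). The fourth SGK1 probe, ILMN_1853711, is annotated to an expressed sequence tag and was detected on no array.

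Of 13 listed SGK family members, substrates and glucocorticoid-induced genes, 11 were kept, and 2 rose and 3 fell in the WT knockdown while 3 rose and 3 fell in isoform knockdown cells, with median differences of -0.11 and 0.13. Under median scaling 1 rose and 5 fell in the WT knockdown, and 2 rose and 5 fell in isoform knockdown cells. By quantile normalization 56.3% and 44.0% of all named genes were called in these comparisons. NDRG1, a substrate that SGK1 phosphorylates, rose by 0.51 ± 0.09 in the WT knockdown and 1.35 ± 0.09 in isoform knockdown cells (adjusted p = 0.00105 and 1.3e-05), and was higher in isoform knockdown cells by 0.85 ± 0.08 (adjusted p = 8.2e-05). Its WT knockdown call was lost under median scaling (0.15), and the other calls were kept (1.11 and 0.97). TSC22D3, the glucocorticoid-induced leucine zipper, rose by 1.07 ± 0.12 and 0.43 ± 0.12 (adjusted p = 0.000102 and 0.0225) and was lower in isoform knockdown cells by 0.64 ± 0.11 (adjusted p = 0.00212). The isoform knockdown call of TSC22D3 against control was lost under median scaling (0.25). NR3C1, the glucocorticoid receptor, fell by 0.33 ± 0.11 and 0.62 ± 0.11 (adjusted p = 0.0287 and 0.00213). ZBTB16, a zinc-finger factor that glucocorticoids induce, was not well above background in either knockdown and at least 1.11-fold lower in the WT knockdown and 1.12-fold lower in isoform knockdown cells than in control (adjusted p = 0.00751 and 0.0139).

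MYC, the transcription factor that drives ribosome production and growth, was read by 2 probes that disagreed. Probe ILMN_1680618 had levels of 11.34, 11.34 and 11.43 in the WT knockdown and 10.93, 11.06 and 11.03 in isoform knockdown cells, against 10.99 and 10.99 in control. The WT knockdown stood above all other arrays, and the control values lay within the range of the isoform knockdown. At this probe MYC rose 1.30-fold in the WT knockdown (0.38 ± 0.09, adjusted p = 0.00509), gave 0.02 ± 0.09 in isoform knockdown cells (adjusted p = 0.863), and was lower in the isoform than in the WT knockdown by 0.36 ± 0.08 (adjusted p = 0.00683). Under median scaling these values were 0.02, -0.22 and -0.25, or 0.22, -0.08 and -0.32 above the median probe, and none passed. Probe ILMN_2110908 had 9.67, 9.69 and 9.68 in the WT knockdown and 9.31, 9.53 and 9.69 in isoform knockdown cells, against 9.83 and 9.77 in control. Both controls stood above all knockdown arrays, but the values of -0.12 ± 0.11 and -0.29 ± 0.11 did not pass (adjusted p = 0.402 and 0.0709). The isoform knockdown value at this probe passed under median scaling (-0.57, or -0.43 relative to the median probe), with the authors' log2 values (-0.27), with an offset of 50 (-0.28), with a trended robust variance and without isoform knockdown replicate 3 (-0.38). The WT knockdown value passed under median scaling (-0.48, or -0.28 relative to the median probe). Pearson r between the MYC probes over the 8 arrays was 0.223.

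Of 14 listed MYC partners and antagonists 12 were kept, and 4 rose and 3 fell in the WT knockdown while 3 rose and 5 fell in isoform knockdown cells, with median differences of 0.09 and -0.22, against 56.3% and 44.0% of all named genes called. Under median scaling 2 rose and 3 fell in the WT knockdown, and 3 rose and 5 fell in isoform knockdown cells. MXD1, which competes with MYC for its partner MAX, rose by 1.25 ± 0.14 in the WT knockdown (adjusted p = 8.03e-05), gave 0.18 ± 0.14 in isoform knockdown cells (adjusted p = 0.343) and was lower in the isoform than in the WT knockdown by 1.07 ± 0.12 (adjusted p = 0.000264). MXD3, another MAX partner, fell by 1.38 ± 0.09 and 0.91 ± 0.09 (adjusted p = 4.16e-06 and 0.000102). ZBTB17, the MYC-binding factor MIZ1, rose by 1.23 ± 0.12 and 0.68 ± 0.12 (adjusted p = 3.42e-05 and 0.0019). PIM1, a kinase that acts with MYC, rose by 0.65 ± 0.10 and 0.91 ± 0.10 (adjusted p = 0.00048 and 0.000165), and its WT knockdown call was lost under median scaling (0.33).

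Of 22 listed MYC targets 20 were kept. In the WT knockdown 10 rose and 2 fell, and in isoform knockdown cells 5 rose and 2 fell, with median differences of 0.24 and -0.05. Over all named genes 26.6% rose and 29.7% fell in the WT knockdown, and 19.9% rose and 24.1% fell in isoform knockdown cells. Under median scaling the counts of the MYC targets were 2 rising and 4 falling, and 0 rising and 7 falling. That scaling called 2849 higher and 7765 lower of all 22467 kept probes in the WT knockdown, and 2103 and 5753 in isoform knockdown cells. Over all kept probes 17.3% were higher and 15.6% lower between the knockdowns (isoform minus WT). Of the MYC targets 1 was higher and 8 lower there, against 37.8% of all named genes called either way. Under median scaling these counts were 0 and 4. CAD, an enzyme of pyrimidine synthesis, rose by 0.73 ± 0.10 in the WT knockdown and 0.58 ± 0.10 in isoform knockdown cells (adjusted p = 0.000218 and 0.00155), and neither passed under median scaling (0.43 and 0.33). RRP12, a ribosome assembly factor, rose by 0.76 ± 0.10 and 0.34 ± 0.10 (adjusted p = 0.000224 and 0.0239), the isoform knockdown call being lost under median scaling (0.08). POLR1B, a subunit of RNA polymerase I, rose by 0.89 ± 0.13 in the WT knockdown (adjusted p = 0.000474) and gave 0.23 ± 0.13 in isoform knockdown cells (adjusted p = 0.197). DKC1, the pseudouridine synthase dyskerin, rose by 0.44 ± 0.10 in the WT knockdown (adjusted p = 0.00544), a call lost under median scaling (0.07), and gave 0.03 ± 0.10 in isoform knockdown cells (adjusted p = 0.827).

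**Figure D4:**
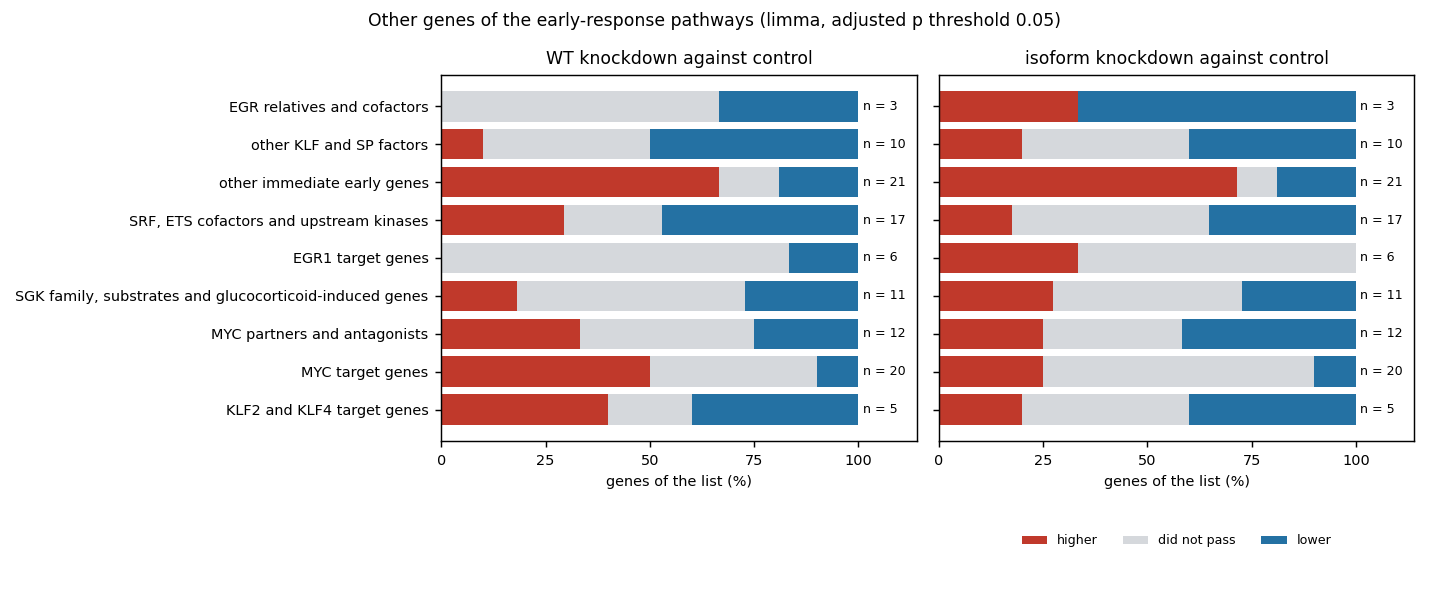
Share of the kept genes of each related list (x axis, percent) that rose (red), fell (blue) or did not pass (grey) in the WT knockdown (left) and the isoform knockdown (right) against control, with the number of kept genes beside each bar. Other immediate early genes have 14 and 15 of 21 rising, and 2 of 6 EGR1 targets rise in isoform knockdown cells.

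The genes whose levels ran most like EGR1 over the 8 arrays, among 2965 genes with a range of at least 1 log2 unit, were ZFAND2A (Pearson r 0.9983), SNORD33 (0.9968), TRIP11 (0.9967), RN7SK (0.9964) and RIMBP3 (0.9961). These arrays fall into 3 groups, so r is largely set by the 3 group means. ZFAND2A, a stress-inducible zinc-finger protein, averaged 10.00 ± 0.05 in the WT knockdown and 9.71 ± 0.07 in isoform knockdown cells, against 9.01 ± 0.04 in control (SD, n = 3, 3 and 2). RN7SK, the small nuclear RNA that holds the elongation kinase P-TEFb inactive, averaged 10.75 ± 0.06 and 9.83 ± 0.12 in these knockdowns, against a mean of 7.55 in control. SNORD33, a box C/D small nucleolar RNA, averaged 7.75 ± 0.05 and 7.24 ± 0.06, against 5.98 ± 0.02 in control. Among the members themselves, EGR1 had r of 0.972 and 0.941 with the KLF4 probes, 0.897 with IER2, 0.737 to 0.801 with SGK1 and -0.798 with KLF2, over the same 8 arrays.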

How the data were processed

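Total RNA of 9 samples was measured on Illumina BeadChips with biotin-labelled cRNA. The deposited signal table covers 47231 probes and gives, per the file headers, a signal intensity with its detection p-value. A second deposited table holds the authors' log2 values, whose column medians lie between 6.23022 and 6.23196. The sources used here name no scanner, scanner software or genome build. The submitters' processing notes list R 3.1.0.

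Control replicate 2 was the exact average of the other control replicates in signal intensity (tolerance 1e-06) and detection p-value (tolerance 1e-05) at all 47231 probes and was left out, which left 8 arrays. The knockdown signals were not in the order of the probe IDs: their rank correlation with the authors' log2 values was -0.00219 to 0.000506, against 1 for control. By rank, all 47231 knockdown rows had exactly 1 partner in the authors' table, 0 of them at the ID given, and were moved to it. The probe identity of the knockdown values therefore rests on the authors' log2 table. After the match the rank correlation of knockdown with control signals was 0.864 to 0.892.

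Background correction (normexp based on the detection p-values, offset 16), quantile normalization and the log2 transform were done with limma 3.58.1 in R 4.3.3. A probe was kept where 3 or more of the 9 columns had a detection p under 0.05, control replicate 2 among the 9. Between 43.0% and 46.1% of probes were detected per array. The median SD over kept probes was 0.124 in the WT knockdown, 0.117 in the isoform knockdown and 0.0851 in control. Groups were fitted together with limma (lmFit and eBayes, with 5 degrees of freedom from the arrays and 4.33 from the prior), two-sided, with Benjamini-Hochberg adjustment within each comparison over all kept probes and a threshold of 0.05. The fit was also run on simulated arrays in which few probes were changed, unlike the data here. No support for the calls is drawn from that run. Where a probe was detected on no array of a group, the fold is a bound, with each dim array set at the higher of its lowest detected signal and the probe's own.

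Symbols came from the platform annotation (1 symbol at 30113 probes, several at 8, none at 17110). Member probes were not averaged, and other genes were taken by their kept probe with the highest mean. The genes named are all member probes, MTDH, up to 4 genes per list with the smallest adjusted p in either knockdown among those past 0.05, and the 5 genes most like EGR1. The members and lists were chosen with earlier results of these data known. Promoter windows came from RefSeq's GRCh38.p14 annotation, and those of 7 of the 10 members were used. Marker levels were summed on the linear scale and given as log2. Alternatives were the authors' log2 values, an offset of 50, median scaling, no filter, a filter by group, a trended robust variance, only the compared groups, a replicate block and leaving out each array.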

Additional observations from a re-analysis of the deposited data

How the results depend on the processing

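The 42 differences of member probes were recomputed under 16 alternatives, 8 of which left out 1 array. Of 672 values, 646 kept their direction and their side of the threshold, 10 lost a call, 8 gained one and 8 changed sign. Of the 28 called differences, 22 never lost the call and 0 changed sign. One gained call was KLF6 between the knockdowns with a trended robust variance (-0.18). The sign changes were at uncalled differences. Under median scaling these were KLF6 in the WT knockdown (-0.27), KLF10 ILMN_1659122 (-0.0013) and MYC ILMN_1680618 (-0.22) in the isoform knockdown, and KLF10 ILMN_2411897 between the knockdowns (0.0548). MYC ILMN_1680618 in the isoform knockdown also turned without isoform knockdown replicate 2, with a range of -0.0034 to 0.0597 over the arrays left out. KLF10 ILMN_2411897 between the knockdowns turned without WT knockdown replicate 1 (0.0643) or 2 (0.0118) and without isoform knockdown replicate 3 (0.0424), with a range of -0.1395 to 0.0643 over the arrays left out. Median scaling called 4920 probes between the knockdowns in place of 7399 (3045 higher, 1875 lower) and 5 member probes in place of 8. Probes called in the isoform knockdown against control numbered 5857 to 9211 with 1 array left out, against 9001; the lowest counts were those without control replicate 1 (5857) and control replicate 3 (5897), where the lone control is assumed to vary like the other groups. With 1 array left out, member calls numbered 10 to 11 in the WT knockdown, 8 to 10 in the isoform knockdown and 7 to 8 between the knockdowns. The cause of these changes was not tested. Deviations of same-numbered arrays from their group means had correlations of -0.0284 to 0.0578. With 2 or 3 arrays in a group, these values cannot decide whether the numbers pair the samples. With a replicate block, 10929, 7970 and 6836 probes were called in the WT knockdown, the isoform knockdown and between the knockdowns, with 11, 9 and 8 member calls, and no member call changed. The authors' log2 values gave smaller differences for EGR1 (1.91, 1.25 and -0.67). Signal over background limits EGR3, which no fold can describe here.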
